A study of Mus musculus with 2 samples.

Results

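The regions described here are the peaks of an anti-Nr4a2 chromatin immunoprecipitation (ChIP-seq) whose summit, the base of highest coverage in the peak, was at most 1000 bp from an end of a protein-coding gene record. Of 7680 deposited peaks, 6996 lay on chromosomes 1 to 19, and 440 of these met the rule, at the ends of 499 of 20661 coding genes. The choice used positions only and no measure of peak strength. The material was BV2, an immortalised mouse microglial line, with 1 library precipitated with the antibody and 1 input library of unprecipitated chromatin, both prepared with an enzymatic chromatin kit. The peak file's own header tags both libraries with H2O2, but the labels mention no exposure, and the state of the cells is not stated further. Each library is single, so no value below has a replicate error. Intervals are exact 95% intervals that cover counting error only, and cells, cultures and antibody lots could add to it.

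Nr4a2 (Nurr1) is an orphan nuclear receptor that binds DNA as a monomer at a short word called NBRE, an extended form of the receptor core AGGTCA. It is best known as a factor that dopamine neurons of the midbrain need, and in glia it is known to dampen inflammatory gene expression. Gene starts differ from gene ends in chromatin. Starts of broadly active genes often lie in CpG islands, stretches rich in unmethylated CG, in open chromatin, and many of them serve a pair of genes read in opposite directions.

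The promoters below are shown because they belong to the 6 peaks of highest fold whose summit lay in the 250 bases upstream of a listed coding start and show the DNA at and around those summits. Start peaks of higher fold whose summit lay elsewhere, such as that of Trp53inp2 inside the gene, are not shown. They come from RefSeq on GRCm38.p6 (mm10) and are written 5′ to 3′ on the strand of the gene, ending at the last base before its start. Capitals mark words of a panel of 12 that is described further on: GGGCGG or CCGCCC (SP/KLF), CCGGAAG or CTTCCGG (ETS), TGANTCA (AP-1) and AGGTCA or TGACCT (nuclear receptor core).
Slc35b1: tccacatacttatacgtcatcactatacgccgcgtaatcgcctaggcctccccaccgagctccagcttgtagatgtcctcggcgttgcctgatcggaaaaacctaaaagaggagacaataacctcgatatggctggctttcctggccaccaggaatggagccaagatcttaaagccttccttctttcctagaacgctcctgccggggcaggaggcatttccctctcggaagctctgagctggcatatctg
Ipo13: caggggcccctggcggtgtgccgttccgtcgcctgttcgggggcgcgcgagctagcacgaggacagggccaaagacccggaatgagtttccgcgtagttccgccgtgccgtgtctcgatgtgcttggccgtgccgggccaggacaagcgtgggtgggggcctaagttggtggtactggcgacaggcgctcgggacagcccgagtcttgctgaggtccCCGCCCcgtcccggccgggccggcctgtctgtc
Rad17: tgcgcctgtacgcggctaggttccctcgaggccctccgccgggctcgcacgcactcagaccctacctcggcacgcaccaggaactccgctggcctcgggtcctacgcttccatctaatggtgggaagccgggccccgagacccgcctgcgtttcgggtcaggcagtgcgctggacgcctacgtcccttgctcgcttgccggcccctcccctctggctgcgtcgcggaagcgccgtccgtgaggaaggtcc
Ak6 and Taf9: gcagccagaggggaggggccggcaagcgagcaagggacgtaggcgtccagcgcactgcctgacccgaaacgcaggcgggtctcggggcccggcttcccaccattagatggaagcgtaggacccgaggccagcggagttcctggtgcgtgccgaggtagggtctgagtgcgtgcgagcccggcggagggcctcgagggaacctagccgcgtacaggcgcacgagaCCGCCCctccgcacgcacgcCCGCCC
Ddx39b: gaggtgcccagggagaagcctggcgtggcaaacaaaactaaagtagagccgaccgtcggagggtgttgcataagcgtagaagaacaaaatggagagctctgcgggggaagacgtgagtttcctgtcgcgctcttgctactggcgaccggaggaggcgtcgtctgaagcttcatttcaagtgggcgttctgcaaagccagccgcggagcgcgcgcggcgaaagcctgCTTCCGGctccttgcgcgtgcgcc
Mrps5: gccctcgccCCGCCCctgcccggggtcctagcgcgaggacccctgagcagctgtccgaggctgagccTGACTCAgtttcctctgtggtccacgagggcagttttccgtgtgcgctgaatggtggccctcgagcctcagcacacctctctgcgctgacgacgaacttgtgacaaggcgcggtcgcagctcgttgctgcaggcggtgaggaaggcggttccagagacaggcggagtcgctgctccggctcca
Zfp661: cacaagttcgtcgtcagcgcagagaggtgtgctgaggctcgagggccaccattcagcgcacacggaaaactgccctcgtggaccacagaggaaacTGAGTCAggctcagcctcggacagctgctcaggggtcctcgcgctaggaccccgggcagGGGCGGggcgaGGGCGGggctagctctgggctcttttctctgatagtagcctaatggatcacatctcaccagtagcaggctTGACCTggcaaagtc
Cdca7: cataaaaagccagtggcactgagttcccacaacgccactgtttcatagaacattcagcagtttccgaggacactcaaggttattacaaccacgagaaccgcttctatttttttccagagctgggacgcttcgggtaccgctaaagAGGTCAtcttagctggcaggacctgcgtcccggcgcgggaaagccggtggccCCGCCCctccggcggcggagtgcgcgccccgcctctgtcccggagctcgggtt
Slc35b1, a transporter of the endoplasmic reticulum, has its window at chr11:95384606-95384855, plus strand, with the summit 100 bp before the start and no panel word. Ipo13, a nuclear import receptor, has its window at chr4:117915000-117915249, minus strand, with the summit 166 bp before the listed start and 1 SP/KLF word. The window of Rad17, a checkpoint protein loader, at chr13:100651062-100651311, minus strand, overlaps on the other strand that of Ak6 and Taf9, at chr13:100651093-100651342, plus strand. Ak6, a nuclear adenylate kinase, and Taf9, a subunit of the general factor TFIID, share 1 listed start, 195 bp from the summit, and 2 SP/KLF words. Ddx39b, an mRNA export helicase, has its window at chr17:35241496-35241745, plus strand, with 1 ETS word. Mrps5, of the mitochondrial ribosome, at chr2:127587176-127587425, plus strand, and the zinc finger gene Zfp661, at chr2:127587095-127587344, minus strand, are read away from each other around 1 summit. Cdca7, a cell cycle gene, has its window at chr2:72475969-72476218, plus strand, with a nuclear receptor core and an SP/KLF word. None of these 8 windows holds the whole NBRE word AAAGGTCA.

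Summits lay at coding gene ends more often than the same summits moved along the chromosome. The share was 6.29% (440 of 6996, interval 5.73 to 6.88), against 260 summits (3.72%) after a move of +10 kb and 272 (3.89%) after a move of -10 kb, a ratio of 1.65 (1.45 to 1.88) to both moves together. Counted over genes, 2.42% of coding genes were marked, that is, had a summit within the window at an end. The moved summits reached 273 genes (1.32%) and 295 genes (1.43%). Of the 499 marked genes, 45 were also reached by a moved summit. The excess over moved summits is thus a count over the list, and no single gene can be assigned to it.

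Among summits whose nearest end had a strand, the excess lay mainly at gene starts. Gene records here carry no strand, and strand was taken from the RefSeq promoter table for 16456 coding genes (79.6%, none of them on chromosome 18). The nearest coding end was a start for 228 members, against 98 and 108 moved summits, a ratio of 2.21 (1.83 to 2.69). It was the far end of the gene for 131 members, against 112 and 123, a ratio of 1.11 (0.893 to 1.39), an interval that includes 1. For the remaining 81, against 50 and 41 moved summits, the strand was not given (ratio 1.78, 1.30 to 2.43). Among peaks of fold 4 or more the ratios were 1.55 (1.05 to 2.26) for starts and 1.47 (0.971 to 2.2) for far ends, so the contrast was small there. Starts were 63.5% (58.3 to 68.5) of nearest ends with a strand, against 46.7% (42.0 to 51.5) for moved summits. Over genes with strand, 1.62% had a summit at the start (267 genes) and 0.918% at the end (151 genes), against 0.668% and 0.763% on average for moved summits.

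Around starts the summits were concentrated just downstream of the first base of the gene record, from which distances were taken. For some genes the promoter table lists a start farther inside, which changes the side. The Ipo13 summit lay 57 bp inside the record but 166 bp before the listed start. For Slc35b1 both starts put the summit 100 bp upstream. How the profile would look from listed starts was not tested. The bin from 0 to 200 bp downstream held 45 summits, against 12 and 10 moved ones, a ratio of 4.09 (2.41 to 7.15). The 200 bp upstream held 32, against 11 and 13 (ratio 2.67, 1.52 to 4.73), and 200 to 400 bp downstream held 33, against 12 and 7 (ratio 3.47, 1.92 to 6.47). From 400 to 800 bp downstream the ratios were 1.48 and 1.62, and both intervals included 1. The farthest bin, 800 to 1000 bp downstream, held 26 summits, against 7 and 10 (ratio 3.06, 1.60 to 6.01). In all, 86 of the 228 (37.7%) lay upstream of the start of the record. Around the far ends of genes every one of the 10 bins had an interval that included 1, with 8 to 18 summits a bin.

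**Figure D1:**
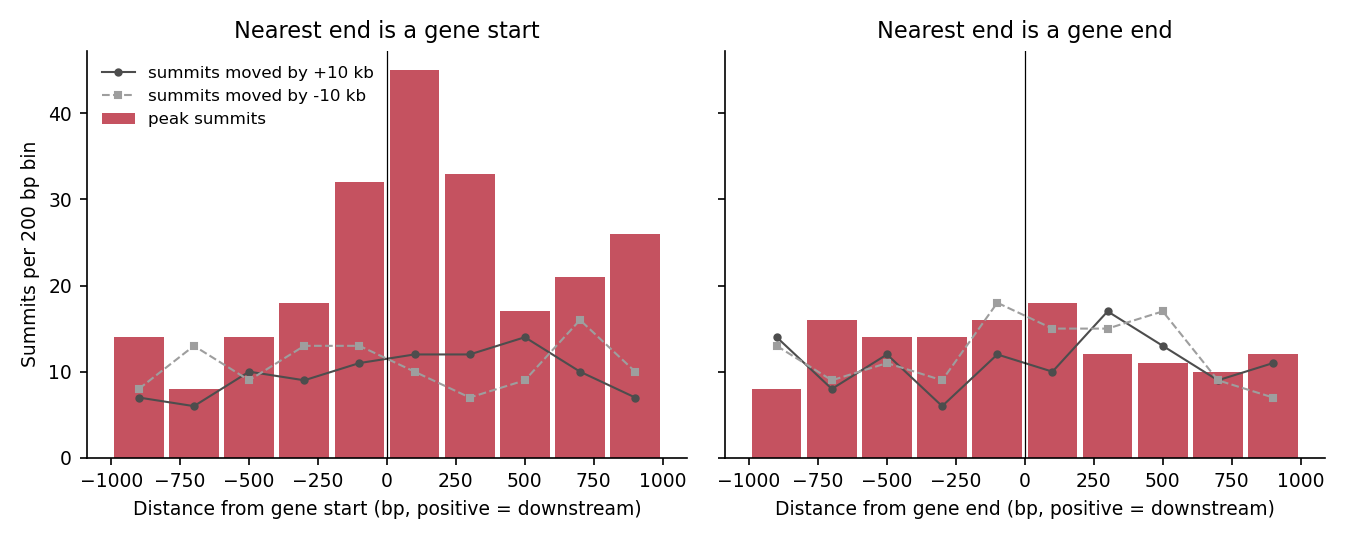
Peak summits per 200 bp bin by distance from the nearest start (left) or far end (right) of a coding gene record, in bp along the gene's strand, as bars. Lines show the same summits moved by 10 kb either way. The bars rise to 45 just downstream of starts, where the lines are at 12 and 10, and stay between 8 and 18 at the far ends.

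Marked starts were more often CpG-rich than the rest. The CpG ratio, the number of CG pairs over the number that the C and G content of the promoter would give, was taken over 300 bases (250 before and 50 after the start). Among starts with a ratio of 0.6 or more, 187 of 8197 were marked (2.28%), against 80 of 8259 (0.969%) among the rest, a ratio of 2.36 (1.80 to 3.10). For moved summits the same comparison gave 0.683% against 0.654%, a ratio of 1.04 (0.795 to 1.37). The marked share went from 0.690% (0.447 to 1.02) in the class of lowest CpG ratio to 2.96% (2.13 to 3.99) in the highest. The shares of genes marked at the far end moved between 0.613% and 1.20% over the same classes. The GC content of marked promoters had a median of 62.3%, against 56.7% for all promoters and 58.0% for those reached by moved summits. GC content thus moved with the marking, and its part in the count of peaks was not tested.

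**Figure D2:**
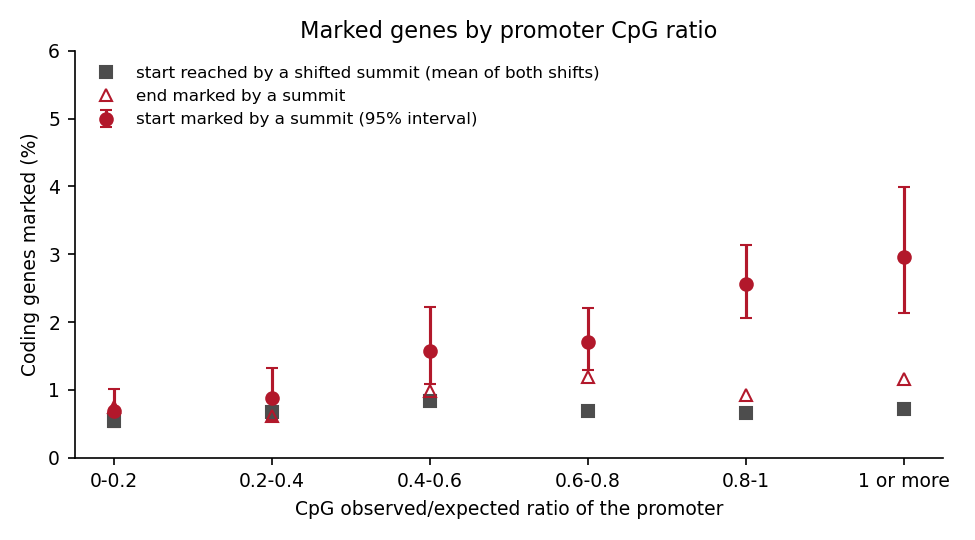
Share of coding genes (%) with a summit at the start, in 6 classes of promoter CpG ratio, with exact 95% intervals, beside the share reached by moved summits and the share marked at the far end. The share of marked starts is 0.690% in the lowest class and 2.96% in the highest, while the moved summits stay under 1%.

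Within 1000 bp, close gene pairs were more frequent among these peaks than among moved summits. Ends of 2 or more coding genes lay within 1000 bp of the summit for 67 of the 440 (15.2%, 12 to 18.9), against 46 of 532 moved summits at gene ends (8.65%, 6.40 to 11.4), a ratio of 1.76 (1.19 to 2.62). With a window of 2000 bp the ratio was 1.18 (0.925 to 1.5), an interval that includes 1. Pairs with their 2 starts on opposite strands, the bidirectional arrangement, were found at 24 summits, against 4 and 3 after moving (ratio 6.86, 2.87 to 18.8). A start beside an end on the same strand was found at 16, against 4 and 8 (ratio 2.67, 1.18 to 6.18). Facing ends were found at 10, against 2 and 9, with an interval that includes 1. Seen over genes, 1746 coding starts lie within 1000 bp of an opposite coding start, in 878 pairs. Of these starts 54 were marked (3.09%, 2.33 to 4.02), against 213 of 14710 other starts (1.45%, 1.26 to 1.65), a ratio of 2.14 (1.55 to 2.89), and in 27 pairs both starts were marked. Paired starts share their peak, so the 54 are not independent and the interval is too narrow. For moved summits the same comparison gave 0.286% against 0.714%, a ratio of 0.401 (0.190 to 0.753). Moved summits thus reached paired starts less often than other starts, and the ratio of 6.86 above also reflects that low count after moving. For peaks of fold 4 or more the ratio of paired to other starts was 1.89 (0.887 to 3.69), with an interval that includes 1. Within starts of CpG ratio 0.6 or more the shares were 3.50% and 2.02%, a ratio of 1.74 (1.23 to 2.41).

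**Figure D3:**
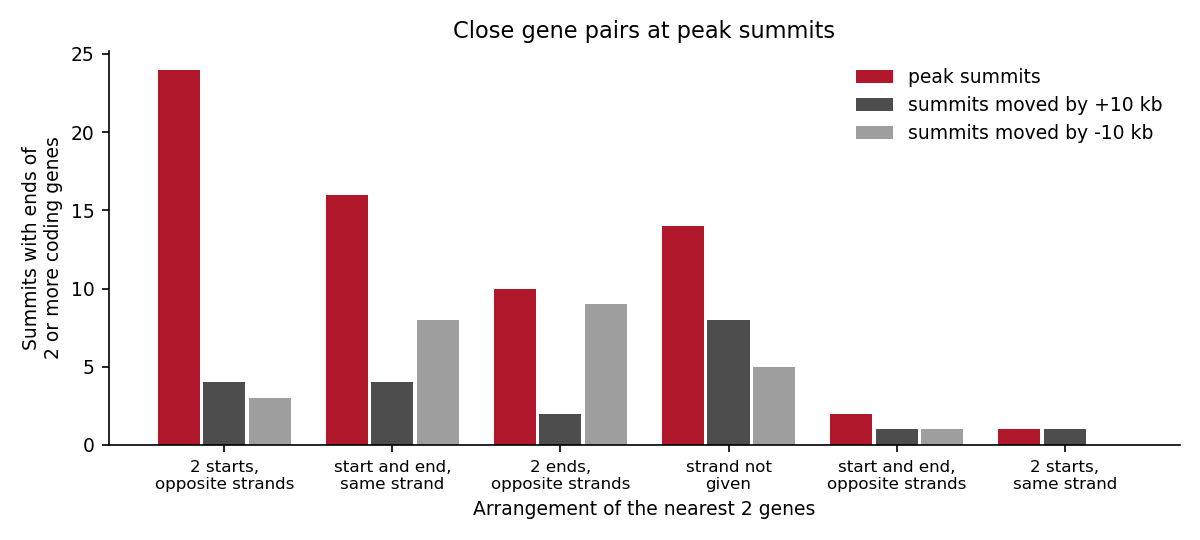
Number of summits with ends of 2 or more coding genes in the window, by the arrangement of the nearest 2 genes, for the peak summits and for both moved sets. Opposite starts stand at 24 against 4 and 3, while facing ends stand at 10 against 2 and 9.

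The folds of the 24 bidirectional summits ran from 2.69 to 5.50. The highest had 3 genes in the window: the summit 87 bp from Rad17 had a pileup (the depth of extended ChIP tags at the summit) of 16 tags and a fold enrichment over the local background of 5.50, both the authors' own values. Cnst, which encodes consortin, and Tfb2m, a mitochondrial transcription factor, shared a summit with a pileup of 14 and a fold of 5.38. Tada2a, of a histone acetyltransferase complex, and Acaca, the enzyme that commits carbon to fatty acid synthesis, shared 1 with a pileup of 13 and a fold of 5.02. Mrps5 and Zfp661 shared a fold of 4.67, and Ppp1r10, a regulatory subunit of protein phosphatase 1, and the mitochondrial ribosome gene Mrps18b a fold of 4.27. Other pairs among the 24 were Rad1, of a DNA damage checkpoint clamp, with Brix1, a ribosome assembly gene, with a pileup of 10 and a fold of 3.95, and Wdr92 with Pno1 and Mbtd1 with Utp18, each with a pileup of 9 and a fold of 3.59. Cip2a, an inhibitor of protein phosphatase 2A, and the ubiquitin ligase gene Dzip3 had their starts 12 and 27 bp from the summit. Other pairs were not bidirectional: the far ends of Fmnl3, an actin-nucleating formin, and of Prpf40b, a splicing protein, met at a summit with a pileup of 17 and a fold of 5.61.

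Only 4 summits had 3 coding genes in the window, and moved summits gave 0 in both directions. Besides Rad17, Ak6 and Taf9 they were 1110065P20Rik, Yrdc, a tRNA-modifying enzyme, and Mtf1, the metal-responsive transcription factor, with a pileup of 9 and a fold of 3.59. The other two lay at LOC115486880, Rspry1 and Psme3ip1 on chromosome 8, with pileups of 10 and 9, and count as separate peaks on the same genes. In all, 12 genes had more than 1 member, among them Catsperb, Rspry1, Psme3ip1, Sqle, Bpifb3, Rbm15b, Hsp90aa1, Tubb4b, Ltb, Nudt8 and LOC115486880. Sqle is an enzyme of sterol synthesis, Ltb is a cytokine of the tumour necrosis factor family and Tubb4b is a tubulin. Hsp90aa1, the inducible cytosolic heat shock protein 90, had summits at both ends, 878 and 154 bp away, with pileups of 13 and 15 and folds of 4.36 and 3.89. Its constitutive relative Hsp90ab1 had 1, with a pileup of 13 and a fold of 4.55. That summit lay nearer to the far end of Slc35b2, at 456 bp, than to Hsp90ab1, at 563 bp. The pattern used for the chaperone group did not hold Hsp90aa1 and Hsp90ab1, and these 2 genes were named after their values were seen.

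The lengths of marked genes were close to those of all coding genes. The median was 17.9 kb (quartiles 6.91 and 43.9), against 17.5 kb (5.93 and 45.02) for all coding genes, and 21.2 and 14.8 kb for genes reached after each move. Genes marked at the start had a median of 19.9 kb and genes marked at the far end 14.8 kb. By class, genes under 2 kb were marked least, at 1.05% (0.672 to 1.55), and the other 7 classes lay between 2.12% and 2.94% with overlapping intervals. Moved summits also reached the shortest class least, at 0.720%. The longest marked genes were Immp2l, a mitochondrial inner membrane peptidase gene of 931.5 kb, Trpm3, Ptprn2, Smyd3, Pde10a and Hivep3. Of these Pde10a, a cyclic nucleotide phosphodiesterase of 461.5 kb, was marked at its far end, with a pileup of 12 and a fold of 4.67. The shortest were 5 histone genes, H2ac24, H4c1, H2bc18, H3c1 and H3c13, at 0.452 to 0.502 kb, and 1700029I15Rik at 0.686 kb.

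**Figure D4:**
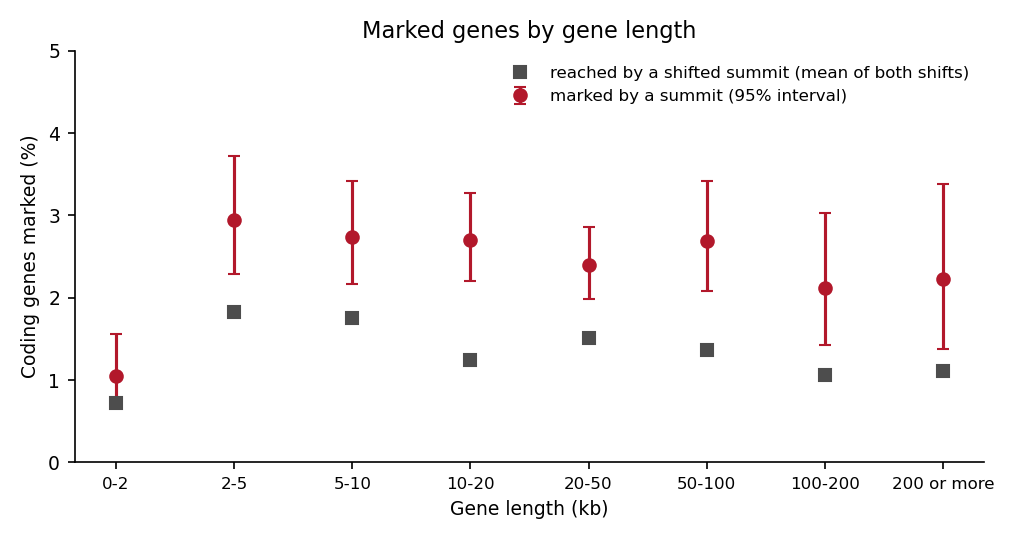
Share of coding genes (%) marked at either end in 8 classes of gene length (kb), with exact 95% intervals, beside the mean share reached by moved summits. Genes under 2 kb are at 1.05% and the other classes between 2.12% and 2.94%.

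Gene functions were read with 33 symbol patterns, which together hold 203 of the 499 marked genes. The marked share was above that of all coding genes (2.42%) in 20 groups and below it in 13, and in 19 groups the count was above both moved counts. All coding genes together were also above both, at 2.42% against 1.32% and 1.43%. A group's ratio to moved summits above 1 is therefore not particular to that group. With 33 groups, intervals of single groups are a description. The interval lay wholly above 2.42% in 3 groups and wholly below it in 2.

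Those above included mitochondrial import, carriers and gene expression, and histones. Of 111 mitochondrial genes 9 were marked (8.11%, 3.77 to 14.8), against 5 and 3 moved, a ratio whose interval (0.771 to 6.70) includes 1. They included Tfb2m, the pyrimidine nucleotide carrier Slc25a33 (pileup 13, fold 4.78) and the fission adaptor Fis1 (pileup 9, fold 3.59), and 5 of the 9 were marked at the start. Of 80 histone genes 6 were marked (7.5%, 2.80 to 15.6), by only 4 peaks, against 1 and 3. H3c13 and H2bc18 shared 1 peak and H3c1 and H4c1 another. The 6 genes are thus not independent, and the interval that places histones above all genes is too narrow. With only the gene nearest each summit counted, 3 histone genes were marked. Histone genes have near-identical copies, so the placement of reads there is uncertain.

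Further groups were above the all-gene share with intervals that include it. Of 165 splicing genes 7 were marked, against 0 and 3 (ratio 4.67, 1.07 to 28.0), among them Prpf40b, Rbm15b and Srsf10. This count depended on the settings. With only the gene nearest each summit counted, 4 splicing genes were marked, and 2 with peaks of fold 4 or more. The Prpf40b summit lay nearer to Fmnl3, at 37 bp against 155 bp. Of 460 zinc finger genes 15 were marked, against 8 and 5 (ratio 2.31, 1.02 to 5.27), and 11 of the 15 at the start, led by Zfp869 with a fold of 4.86. Among the 15, Zfp988, Zfp534 and Zfp984 lie near each other, with peaks between chr4:147305516 and chr4:147812594, and may not be independent. Zfp984 had a pileup of 25 but a fold of only 3.55, and the placement of reads there was not tested. Of 51 DEAD and DEAH box helicases, which remodel RNA, 4 were marked, against 0 and 2: Ddx39b (fold 4.98), Dhx33 (4.67), Ddx55 (4.31) and Ddx5 (3.23). All 4 marked genes of ribosome biogenesis, of 75, were marked at the start, against 1 and 0 moved. Each of these 4 shared its summit with another coding gene, and 2 remained with only the nearest gene counted. Of 82 cytosolic ribosomal protein genes 4 were marked, Rps2, Rpl23a, Rpl24 and Rps24, against 1 and 3 moved. The 3 of these with a strand were marked at the far end, and for Rpl23a the strand was not given. The Rpl24 summit lay just as near, at 65 bp, to the start of Zbtb11, and the Rps2 summit also lay at the far end of Ndufb10. Lysosome and autophagy genes had 5 of 88, against 2 and 6, with Trp53inp2, an autophagy scaffold, at a pileup of 15 and a fold of 5.58, and the cathepsin Ctsk at a fold of 4.09.

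The 2 groups below were chemosensory receptors, with 7 of 1511 marked (0.463%, 0.186 to 0.952) against 5 and 5 moved, and uncharacterised or numbered genes, with 30 of 1900 (1.58%, 1.07 to 2.25) against 24 and 29. Cadherin, guidance and synaptic adhesion genes had 1 of 192 (0.521%, 0.0132 to 2.87), the netrin Ntn3, against 5 and 4. Chromatin modifiers had 2 of 187 (1.07%, 0.130 to 3.81), Cbx6 and Phf21b, against 4 and 2. Both intervals include the share of all coding genes. Immune genes were marked at 1.69% (9 of 533, 0.775 to 3.18), against 3 and 7. The highest folds among them were at H2-M3 (5.02), Clec14a (4.67), Cd83 (3.95) and the co-stimulatory receptor Cd40 (3.92). For Cd83 and Cd40 the strand was not given. None of 14 microglia markers was marked (upper bound 23.2%), nor any of 15 genes of the NR4A family and its known partners (21.8%). Moved summits gave 0 in both lists, and lists of this size cannot show a share near that of all genes.

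**Figure D5:**
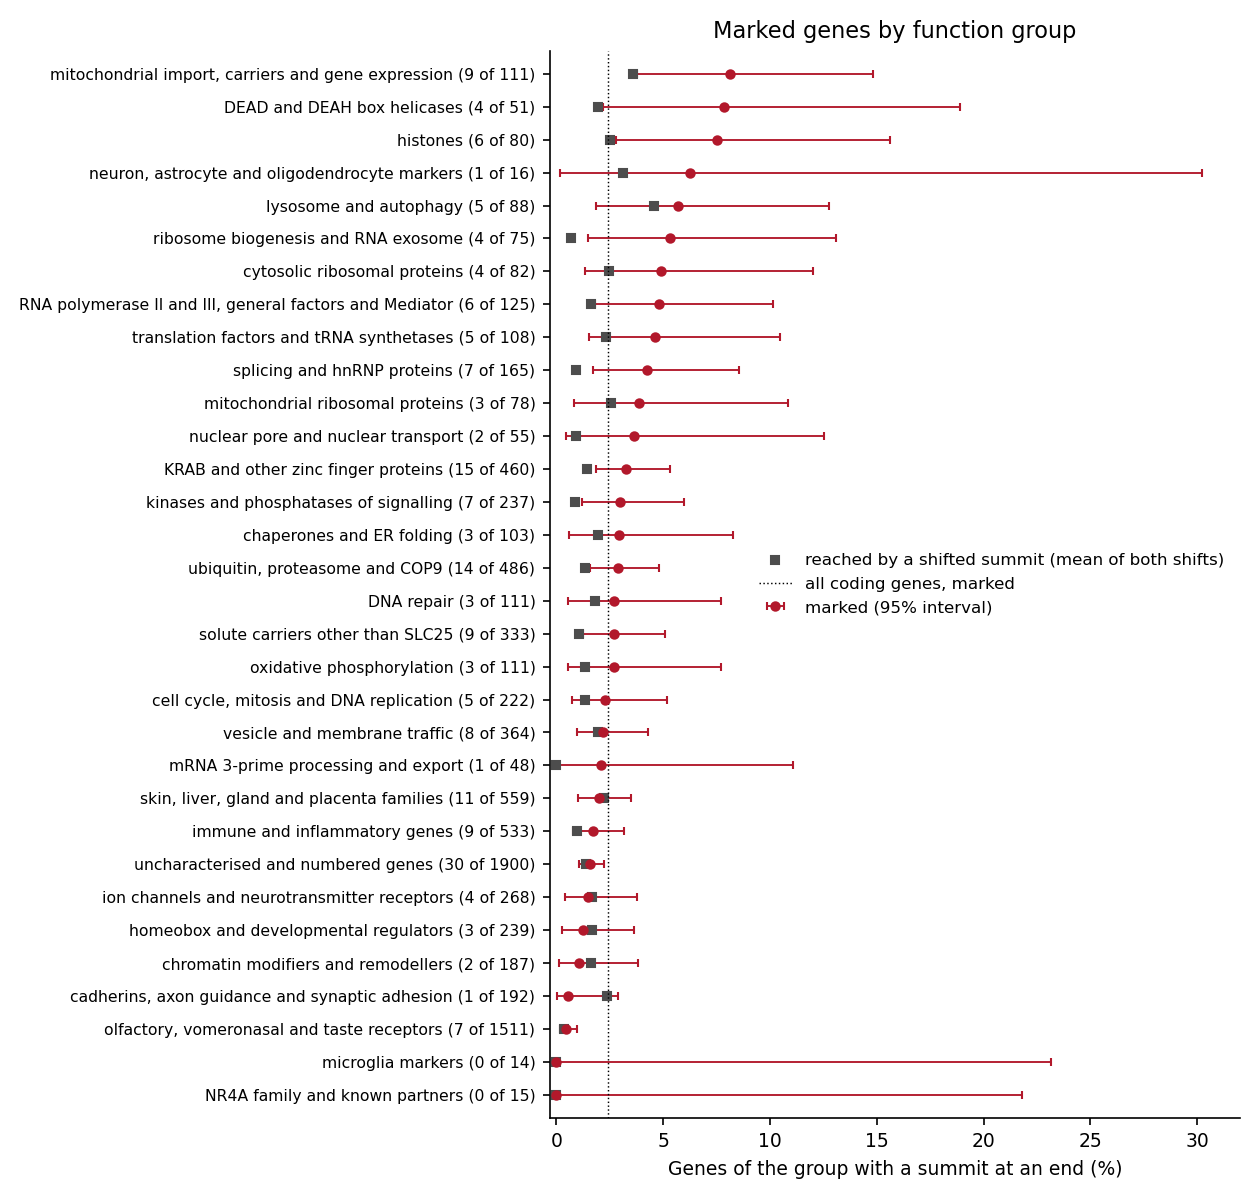
Share of the genes of each of 32 function groups (%) with a summit at an end, with exact 95% intervals, beside the mean share reached by moved summits and a dotted line for all coding genes (2.42%). Mitochondrial import, carriers and gene expression stand at 8.11%, and chemosensory receptors at 0.463%.

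The peaks at gene ends were close to the rest of the list in strength. The median pileup was 10 tags in members and in the other 6556 peaks, and the median fold was 3.59 in both. The upper quartile of fold was 3.95 in members and 4.27 in the others, and the median −log10 q was 1.16 and 1.39. Among members 24.3% (20.4 to 28.6) had a fold of at least 4, as did 28.6% of the others (27.5 to 29.7). The share was 22.4% (17.1 to 28.3) for members nearest a start and 33.6% (25.6 to 42.4) for those nearest a far end. Among members 215 (48.9%) had a q of at most 0.05, against 50.6% of all peaks on these chromosomes. Several peaks named above missed this limit, among them those at Pno1, Utp18, Cip2a, Fis1 and Ddx5. A q of at most 0.001 was reached by 12 members (2.73%), against 2.42%, and a fold of 5 or more by 14 (3.18%), against 3.74%. Members were somewhat wider: 65 (14.8%, 11.6 to 18.4) spanned 300 bp or more, against 10.2% (9.45 to 10.9) of the others.

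The highest fold was at Svbp, which encodes a partner of the tubulin-trimming vasohibins. Its peak at chr4:119201066-119201256 lay 134 bp inside the far end, with a pileup of 18, a fold of 6.76 and a −log10 q of 6.27. Slc35b1 and Ipo13 followed, each with a pileup of 16 and a fold of 6.05. The other members at a q of at most 0.001 were those at Fmnl3, Trp53inp2, Prex1, Rad17, Brat1, Cnst, Nudt8, Gm7592 and Lars2. Brat1, a DNA damage response gene, had a pileup of 17 and a fold of 5.38. Completing the 15 highest folds were H2-M3, Wipf1, Steap2 and Slamf1, between 5.02 and 4.98, and Tada2a. Slamf1 shared its fold of 4.98 with Ddx39b and Actr1a. By pileup the order was different. The highest, 64 tags, was at the far end of Lars2, a mitochondrial leucyl-tRNA synthetase, at chr9:123461885-123462129, over a local background of 20.8 tags, so its fold was only 2.98. Zfp984 had 25 tags, Gm7592 20, and Svbp and the vesicle fusion gene Vti1b 18. Just inside the 1000 bp limit lay Slc9b2 at 996 bp, Gm11569 at 994 and Slc25a47 at 992, and just outside it Dnm1l at 1003, Med30 at 1005 and Arf1 at 1010, with folds from 2.74 to 4.31 over the 6.

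The 12 words were searched on both strands in the 300 base promoters. The NBRE word AAAGGTCA stood in 3 of the 267 promoters marked at the start (1.12%, 0.232 to 3.25), against 1.22% of all 16456. These were Bco1, Uckl1 and Tyw5, with folds of 3.96, 3.76 and 2.87. The core AGGTCA, which NBRE contains, stood in 13.5% (9.63 to 18.2), against 14.4% of all and 11.0% of those reached by moved summits. Among promoters of CpG ratio 0.6 or more the order differed. NBRE stood there in 1.07% of marked promoters (0.130 to 3.81), against 0.561% of all and 0% of those reached by moved summits. The core stood in 11.2% (7.09 to 16.7), against 9.45% and 7.14%. Both intervals include the share of all such promoters. Where the summit itself lay in a promoter window, for 54 genes, NBRE stood in 0, which allows up to 6.60%. An exact word in this window says nothing of binding elsewhere or at looser sites.

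Other words differed. ETS (CCGGAAG) stood in 21.3% of marked promoters (16.6 to 26.8), against 12.3% of all and 13.7% of those reached by moved summits. YY1 (AAGATGGC) stood in 7.12% (4.34 to 10.9), against 3.21% and 3.20%, SP/KLF (GGGCGG) in 56.2%, against 47.3% and 47.5%, and the E-box CACGTG in 12%, against 7.97% and 6.85%. TATAAA stood in 8.61%, against 13.5% of all and 8.22% of those reached by moved summits. The remaining words, CCAAT (NFY), GCGCATGC (NRF1), TGACGTCA (CRE), TCTCGCGA (ZBTB33) and TGANTCA (AP-1), had intervals that include the share of all promoters. Most of these differences were smaller among promoters of CpG ratio 0.6 or more. There ETS stood in 26.7% of marked promoters (20.5 to 33.7), against 20.1% of all and 25% of those reached by moved summits, and SP/KLF in 71.1%, against 74.4% of all. YY1 there stood in 8.56% (4.97 to 13.5), against 5.09% and 4.46%. TATAAA went the other way there, with 7.49% of marked promoters (4.15 to 12.2), against 5.82% of all and 8.04% of those reached by moved summits.

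Chromosomes differed widely in how many coding genes were marked, from 0.178% on chromosome 6, which has 47 peaks in all, to 5.03% on chromosome 15, which has 663. The share of peaks at gene ends was highest on chromosome 17 (12.1%) and lowest on chromosome 14, with 2 of 177 (1.13%), against 4.80% for moved summits there.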

How the data were processed

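One anti-Nr4a2 ChIP library and 1 input library of BV2 cells were compared. Reads were aligned with Bowtie2 to mm10, and ChIPseeker and MACS2 2.2.6 are also listed, per the submitters' processing notes, whereas the file header names MACS 2.1.4. Peaks were called at a p-value cutoff of 0.001 with fragments of 164 bp, per the file headers. After duplicate removal 20365794 ChIP tags and 22520884 input tags remained, per the file headers. The deposited pileup is a coverage signal in tags. The deposited −log10 p-value and −log10 q-value columns were used as given, although q was to be left out, per the file headers. The deposited fold is a ratio of pileup to local background. These are the authors' values and only describe, rank or filter peaks.

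Gene ends came from RefSeq records on GRCm38.p6 and strand and promoters from a RefSeq promoter table that matched 16456 of 20661 coding genes. A gene is marked if a summit lies within 1000 bp of an end. Controls were the same summits moved by 10 kb either way. Shares carry Clopper-Pearson 95% intervals and ratios exact conditional binomial ones, and neighbouring genes or peaks are not independent. Counting was tested on simulated summits. Python 3.11.15, pandas 2.3.3 and scipy 1.17.1 were used. Windows, peak filters, shifts and single chromosomes were varied. No test of conditions was possible with 1 library per kind.

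The members, gene groups and words were chosen with earlier results of these data known. Genes were named by rule: the 15 highest folds, the 5 highest pileups, members with q of at most 0.001, up to 4 genes per function group, summits with 3 or more genes, the 12 strongest pairs, the 6 longest and 6 shortest genes, those with more than 1 peak, and 3 on either side of the limit. One function group and 1 gene with more than 1 peak are counted in the totals but are not reported here. Some of the rest are given as counts only, and some of the pairs were chosen after their values were seen.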

Additional observations from a re-analysis of the deposited data

Results flagged for a closer look

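On chromosome X, which the choice of peaks leaves out, 16 of 652 summits lay at coding gene ends (2.45%, 1.41 to 3.95). Moved summits gave 14 and 17, a ratio of 1.03 (0.527 to 1.95), an interval that includes 1. Whether X differs from the other chromosomes was not tested. The highest fold there was at the start of Rhox1, a homeobox gene of reproductive tissue, with a pileup of 12 and a fold of 4.63.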

How the results depend on the processing

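Settings beyond those of the report were varied 1 at a time; those for starts and ends, CpG, opposite starts, background and single chromosomes were chosen after seeing the data. The share of summits at gene ends was 3.73% with a window of 500 bp, 9.96% with 2000 bp, 5.40% for a fold of 4 or more and 5.52% for peaks whose background was the genome-wide value. Its ratio to moved summits was 1.89, 1.35 and 1.40 under the first 3 of these and 1.41 with a shift of 5 kb. Leaving out each of 19 chromosomes in turn kept the ratio between 1.61 and 1.71. The share with 2 or more genes was 11.1% at 500 bp, and its ratio fell to 1.18 at 2000 bp. The median length of marked genes was 14.5 kb for q of at most 0.05, 13.4 kb for a fold of 4 or more and 22.8 kb at the genome-wide background, so it followed the peak filter. The ratio for starts was 2.75 at 500 bp, 1.71 at 2000 bp, 1.81 for q of at most 0.05 and 1.55 for a fold of 4 or more. In that last set starts were 53.7% of nearest ends and the ratio for far ends was 1.47. The ratio for far ends passed below 1 at 2000 bp, to 0.983. The CpG ratio contrast was 3.31 for a fold of 4 or more. The causes of these moves were not tested. The number of groups above both moved counts stayed between 18 and 21 under its alternatives, but counts of single groups are small and 77 of 173 such values moved, a count by more than 1.5 times or the length of genes reached after moving beyond its interval. A further alternative without the chromosomes that hold few members was tried and withdrawn, because it chose them by the outcome. No paired analysis was possible because there is 1 library of each kind.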
